A study of Mus musculus with 14 samples.

Results

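The subject is fatty acid oxidation in mitochondria and peroxisomes, followed through 33 genes listed by symbol and found among the 17890 genes of the expression table. They were grouped as the carnitine shuttle (5 genes), the acyl-CoA dehydrogenases (7), the later steps of the mitochondrial spiral (6), the enzymes that deal with double bonds (3), electron transfer (3), peroxisomal enzymes (6) and control genes (3). The cells were primary mouse cultures that the labels call macrophages, raised from marrow progenitors of male C57BL/6J mice for 7 days with M-CSF, the macrophage growth factor, in medium holding 5 mmol/L glucose. The D libraries (n = 4) are read as the diabetic group, from animals aged 8 weeks when allocated, injected on 5 days with streptozotocin, a drug toxic to pancreatic beta cells (42 to 45 mg/kg per day), and kept hyperglycemic for 6 weeks after passing a glucose of 16.9 mmol/L. The M libraries (n = 4) are read as the healthy group, which had the same strain, sex, starting age and culture without the diabetes. No label says what the letter M stands for, and it was assigned to the healthy group because no other group of that phase remained; every direction below is D relative to M. Nor does a label say whether the 4 libraries of a group came from different mice, so each p-value reflects the spread among these libraries, which may be technical. Samples of a later phase (3 diabetic-trained, 3 untrained) were not analysed here.

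Long-chain fatty acids enter mitochondria as acylcarnitines: carnitine palmitoyltransferase 1 makes them at the outer membrane, a carrier exchanges them across the inner membrane, and carnitine palmitoyltransferase 2 returns the acyl group to coenzyme A. Inside, each turn of beta-oxidation runs through an acyl-CoA dehydrogenase, a hydratase, a hydroxyacyl-CoA dehydrogenase and a thiolase, and the electrons taken by the dehydrogenases pass through electron transfer flavoprotein to the respiratory chain. Peroxisomes shorten very-long-chain and branched fatty acids with enzymes of their own, beginning with an acyl-CoA oxidase. In macrophages fatty acid oxidation is known mostly from work on alternative activation, in which PGC-1 coactivators and PPAR receptors are studied as its regulators.

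RefSeq upstream sequence on GRCm38.p6 was matched by symbol for 27 of the 33 genes; Crat, Hsd17b4, Decr1, Cpt1b, Acaa2 and Acad9 had no entry in the table. The 250 bases before the start were searched on both strands for the letters TCAAGGTCA, which estrogen-related receptors bind, for 2 AGGTCA hexamers with 1 base between them, the PPAR arrangement, and for the hexamer AGGTCA alone, which the other motifs contain. The longer motif was in 0 of 27 windows against 0.387% of 32851 windows in the table, and the hexamer pair in 0 of 27 against 0.0335%, which says only that these letters are not in these windows. The hexamer was in 4 of 27, those of Cpt1a, Acadvl, Acadm and Echs1, or 14.8% against 14% of all windows. G and C made up a median of 59.6% of the genes' windows and 52.4% of all windows. Printed below are 4 windows, 5′ to 3′ on the strand of the gene. They belong to a dehydrogenase gene that rose, to an electron transfer gene and a shuttle gene that fell, and to a pair of genes that share an upstream region. Acadsb lies at chr7:131410351-131410600 on the plus strand, Etfb at chr7:43443822-43444071 on the plus strand, Cpt1a at chr19:3323051-3323300 on the plus strand and Hadhb at chr5:30155003-30155252 on the plus strand. Capitals mark the hexamer, which in Cpt1a reads on the opposite strand and begins 94 bases before the start. The start used for Cpt1a is that of the promoter table and lies inside the span of the gene, which begins further upstream in the RefSeq gene table. The windows of Acadsb, Etfb and Hadhb hold none.
Acadsb: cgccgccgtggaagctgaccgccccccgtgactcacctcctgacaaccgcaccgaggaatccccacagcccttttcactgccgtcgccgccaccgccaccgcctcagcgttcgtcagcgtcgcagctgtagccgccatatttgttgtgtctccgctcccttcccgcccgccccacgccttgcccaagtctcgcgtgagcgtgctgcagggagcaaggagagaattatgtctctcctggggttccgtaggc
Etfb: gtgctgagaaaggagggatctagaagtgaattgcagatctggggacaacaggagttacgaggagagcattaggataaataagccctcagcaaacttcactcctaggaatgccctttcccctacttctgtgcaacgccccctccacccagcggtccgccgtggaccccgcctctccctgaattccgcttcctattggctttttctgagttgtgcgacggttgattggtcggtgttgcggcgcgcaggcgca
Cpt1a: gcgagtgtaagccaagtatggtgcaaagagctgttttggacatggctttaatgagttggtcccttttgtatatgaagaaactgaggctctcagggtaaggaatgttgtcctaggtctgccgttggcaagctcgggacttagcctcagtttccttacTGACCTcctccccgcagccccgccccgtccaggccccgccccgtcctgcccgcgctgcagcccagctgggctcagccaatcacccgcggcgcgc
Hadhb: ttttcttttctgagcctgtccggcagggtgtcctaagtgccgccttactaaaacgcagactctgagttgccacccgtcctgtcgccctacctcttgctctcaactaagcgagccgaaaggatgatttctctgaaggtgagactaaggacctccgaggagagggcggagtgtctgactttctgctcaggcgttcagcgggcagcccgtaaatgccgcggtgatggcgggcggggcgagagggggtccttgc
Hadha and Hadhb, which encode the alpha and beta subunits of the mitochondrial trifunctional protein, start head to head on chromosome 5. The start of Hadha lies at 30154980 on the minus strand and that of Hadhb at 30155253 on the plus strand, with 272 bases between them, so that 228 bases of the Hadhb window also lie in the Hadha window. Their values are compared below with this shared region in view.

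All 33 genes were in the table, through 88 RefSeq transcripts; 19 of them had 1 transcript. Levels between genes are compared in TPM, in which the authors scaled each transcript's reads by its length. Etfb had the highest mean over the 8 libraries (112 TPM), followed by Acox3 (97.4 TPM), Hadha (92.6 TPM), Acadl (66.1 TPM), Hadhb (65.9 TPM) and Hsd17b10 (62.2 TPM). In the M libraries Etfb, at 121 to 136 TPM, stood above Acox3 at 87.3 to 116 TPM, but in the D libraries Etfb, at 75.9 to 113 TPM, overlapped Acox3 at 90.4 to 103 TPM. Acadl, Hadhb and Hsd17b10 overlapped one another in each group. Most genes lay between 10 and 60 TPM, and the range was closed below by Pecr (5.69 TPM), Ehhadh (1.08 TPM), Ppargc1a (0.338 TPM) and Ppara (0.0150 TPM). Cpt1a stood at 34.4 TPM and its muscle-type relative Cpt1b at 5.79 TPM, and each library had more of the former.

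**Figure D1:**
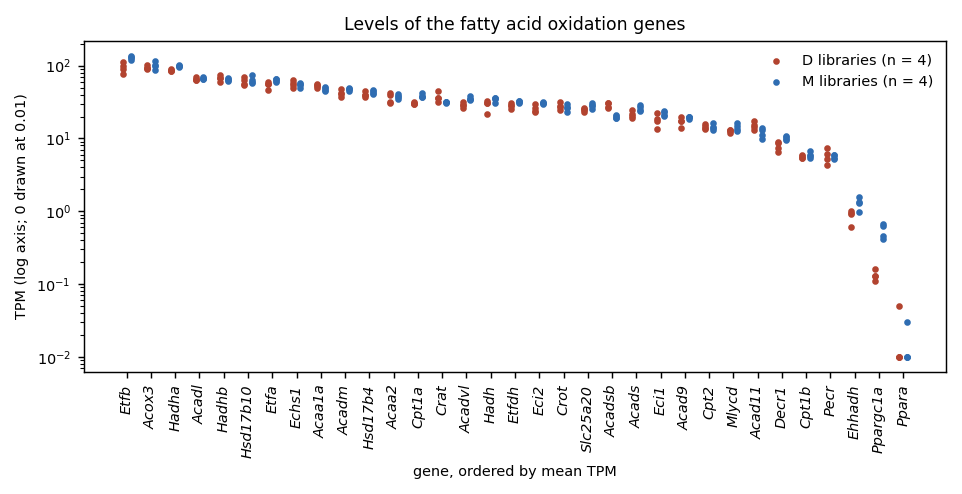
Levels of the 33 genes in TPM (vertical log axis, a value of 0 drawn at 0.01), ordered by their mean over all libraries; each point is 1 library, red for D and blue for M (n = 4 each). Etfb, Acox3 and Hadha lead at 92.6 to 112 TPM, and Ehhadh, Ppargc1a and Ppara lie far below the rest.

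Across the set the D and M libraries differed little and in no common direction. Of 32 genes tested, 4 were higher in D (Acadsb, Acad11, Crat and Acaa1a) and 4 were lower (Cpt1a, Acadvl, Etfb and Ppargc1a) (edgeR quasi-likelihood test, p adjusted by Benjamini-Hochberg over 12839 genes, threshold 0.05). That is 25.0% of the set, where 34.7% of all tested genes passed; 12.5% of the set were higher against 17.4% of all genes, and 12.5% lower against 17.3%. The median log2 fold change was -0.08 for the set and -0.03 for all tested genes. In the set 13 genes lay above 0 and 19 below, and over all tested genes 5889 lay above and 6950 below. CPM, a gene's share of the library size after scaling by edgeR's TMM factors, did not overlap between the groups in 10 of the 32 genes (31.2%, against 34.7% of all tested genes). The 24 genes that did not pass had log2 fold changes between -0.48 and 0.17, 20 of them within 0.2 of 0. On GRCm38 the higher genes span chr7:131410601-131446211 (Acadsb, NCBI gene 66885), chr9:104063724-104127656 (Acad11, 102632), chr2:30400476-30416017 (Crat, 12908) and chr9:119341028-119350296 (Acaa1a, 113868). The lower genes span chr19:3322326-3385735 (Cpt1a, 12894), chr11:70010183-70015428 (Acadvl, 11370), chr7:43444072-43457800 (Etfb, 110826) and chr5:51454249-52115853 (Ppargc1a, 19017). Ppara, the receptor most tied to control of this pathway, was below the filter on low counts, with 0 to 2 counts per library.

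The split of directions rested on the scaling. TMM factors were 0.913 to 1.01 in the D libraries and 1.03 to 1.05 in the M libraries. With library totals alone the median of all tested genes moved from -0.03 to -0.14 and that of the set from -0.08 to -0.18; 1 gene of the set (Acadsb) was then higher and 8 were lower, and the share of all called genes that were higher fell from 50.1% to 31.3%. With the deposited FPKM that share was 30.9% to 31.1% and with TPM 33.0%, and Acadsb was again the only gene of the set called higher, beside 8 and 7 called lower. Acadsb, Cpt1a, Acadvl and Etfb passed in the same direction with TMM factors, library totals, FPKM and TPM.

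**Figure D2:**
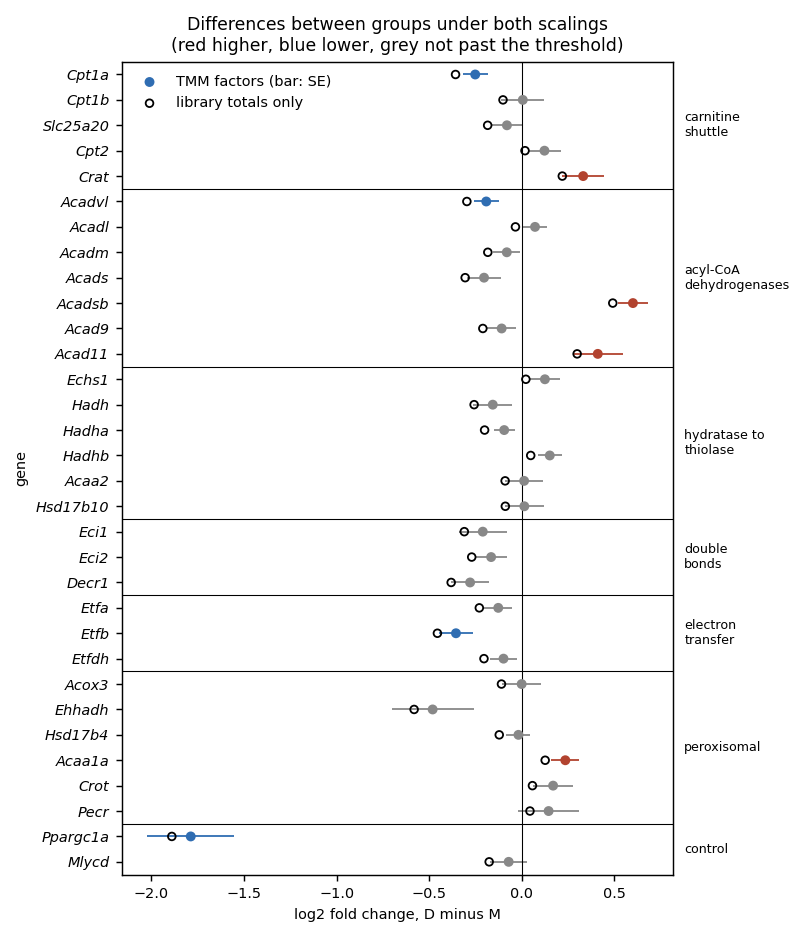
Log2 fold change, D minus M, of the 32 tested genes by step, from edgeR with TMM factors (filled, with SE) and with library totals alone (open circles). Red and blue mark genes past the threshold with TMM factors; library totals move the values down by about the same amount, and Acadsb and Ppargc1a lie farthest from 0 on either side.

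The libraries also differed in the cell types their transcripts point to, and the part of this in the results was not tested. All macrophage markers were detected, with 7 of 10 higher in D and 0 lower, and their summed level was 9322 to 14682 CPM in D and 6773 to 7671 CPM in M. Lyz2 alone made up most of this sum, at 6481 to 10898 CPM in D and 4262 to 4995 CPM in M. Itgam came next, at 2003 to 2830 and 1848.5 to 1934 CPM, so the sum says little of the other markers. Of these, Cd68, Cd14 and Mertk overlapped between the groups and did not pass. Neutrophil and granule markers summed to more, at 41456 to 64201 CPM in D and 36344 to 38341 CPM in M, with 9 of 12 higher and 0 lower. B-lineage markers summed to 74.7 to 266 CPM in D and 1209 to 1579 CPM in M, with 0 of 12 higher and 9 lower. Mast cell and basophil markers (7 of 8 higher, 0 lower) summed to 1056 to 1430 CPM against 545 to 686 CPM, dendritic markers (0 of 8 higher, 4 lower) to 114 to 195 CPM against 222 to 244 CPM, and T and natural killer markers (6 of 8 tested higher, 1 lower) to 82.4 to 89.6 CPM against 51.9 to 57.7 CPM. Erythroid markers (0 of 8 called) summed to 956 to 4441 CPM in D and 3086 to 5954 CPM in M. No gene of these lists was at 0 in all libraries. In bulk RNA, fewer cells of a type cannot be told apart from less RNA of a gene per cell. Each library held 19048248 to 20028111 estimated counts. D replicate 3 stood apart from the rest (-54.5 on the first principal component, which held 64.7% of the variance, against -16.0 to -32.1 in the other D libraries and 27.9 to 37.6 in M) and had the highest neutrophil and macrophage sums and the lowest B-lineage and erythroid sums.

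The carnitine shuttle went both ways. Cpt1a, the isoform of carnitine palmitoyltransferase 1 that controls entry in most tissues, was at 71.1, 68.8, 74.0 and 72.2 CPM in D and 88.5, 80.6, 79.6 and 91.7 CPM in M, given here and below in the order of the replicate numbers. Each D library lay below each M library, and the D libraries lay close together. Cpt1a was 1.19-fold lower in D (log2 fold change -0.25 ± 0.07, SE; adjusted p = 0.0150). Crat, carnitine acetyltransferase, which moves short acyl groups between coenzyme A and carnitine, was at 49.4, 56.8, 75.9 and 57.4 CPM in D and 49.2, 47.7, 46.2 and 47.1 CPM in M. The lowest D library just cleared the highest M library and D replicate 3 stood above all others. Crat was 1.26-fold higher in D (log2 fold change 0.33 ± 0.11; adjusted p = 0.0431). Of 23 alternatives 13 ended this call and 1 turned its sign. It held without D replicate 3 (0.21, adjusted p = 0.0455) or D replicate 1, but ended without any other library (adjusted p = 0.0627 to 0.0934), with library totals (0.22, adjusted p = 0.0928), FPKM or TPM (adjusted p = 0.0892 to 0.0998) and voom (adjusted p = 0.0534). Cpt2, at 17.5 to 20.1 CPM in D and 15.6 to 19 CPM in M, the carrier Slc25a20, at 22.6 to 24.4 and 22.1 to 27.9 CPM, and Cpt1b, at 8.40 to 9.93 and 8.04 to 10.5 CPM, overlapped between the groups, and none of them passed (adjusted p = 0.299, 0.488 and 0.974).

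Both shuttle calls depended on how transcripts were counted. Crat was spread over 12 transcripts; 1 predicted transcript took 27.2% ± 13.6 (SD, n = 4) of its counts in D and 42.3% ± 3.46 in M, and when its most abundant transcript was counted on its own the log2 fold change turned to -0.23 (adjusted p = 0.794). For Cpt1a, 1 of 5 transcripts took 10.9% to 77.9% of the counts in the D libraries and 33.6% to 76.1% in the M libraries; with the most abundant transcript alone its value was -0.46 (adjusted p = 0.636) and with curated transcripts alone -0.44 (adjusted p = 0.470). The call of Cpt1a was also lost on leaving out D replicate 2 (adjusted p = 0.0507), D replicate 4 (0.0560) or M replicate 4 (0.0521). The call of Crat ended in the fit with the replicate number as a block (0.32, adjusted p = 0.0533).

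Among acyl-CoA dehydrogenases, the enzymes that open each turn, 2 of 7 rose and 1 fell (42.9%, against 34.7% of all tested genes). Acadsb, the short/branched-chain dehydrogenase, which also acts in isoleucine breakdown, was at 46.2, 54.5, 59.0 and 50.2 CPM in D and 33.7, 35.5, 36.1 and 33.2 CPM in M. The groups were well separated, and M varied little. Acadsb was 1.52-fold higher in D (log2 fold change 0.60 ± 0.08; adjusted p = 0.000524), and it passed in all 23 alternatives, at 0.45 to 0.68. Acad11, a dehydrogenase with a preference for long and very long chains, was at 22.9, 27.0, 33.3 and 26.3 CPM in D and 19.5, 16.7, 23.7 and 22.3 CPM in M. Here the groups overlapped, M replicate 3 lying above D replicate 1. Acad11 was 1.33-fold higher (log2 fold change 0.41 ± 0.13; adjusted p = 0.0366), and its call ended without D replicate 3 (0.32, adjusted p = 0.0665), among 12 alternatives that ended it. Acadvl, the very-long-chain dehydrogenase of the inner membrane, was at 33.8, 36.6, 32.8 and 34.9 CPM in D and 38.8, 38.9, 37.9 and 42.1 CPM in M. The groups did not overlap, but the gap between them was small. Acadvl was 1.14-fold lower (log2 fold change -0.19 ± 0.07; adjusted p = 0.0477), close to the threshold, and 15 of 23 alternatives ended the call, among them the replicate block (-0.19, adjusted p = 0.0504) and the fits that left out any 1 library (adjusted p = 0.0562 to 0.138).

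The medium- and long-chain dehydrogenases did not pass. Acadl, the most abundant dehydrogenase of the set, was at 72.2, 65.7, 73.4 and 67.5 CPM in D and 70.7, 66.2, 63.2 and 65.3 CPM in M, which overlapped (log2 fold change 0.07 ± 0.07; adjusted p = 0.416). Acadm, the medium-chain enzyme, lay at 43.9 to 52.4 CPM in D and 46.5 to 51.6 CPM in M, and Acad9, which also serves in assembly of respiratory complex I, at 32.3 to 41.5 and 39.1 to 40.5 CPM. Acads, the short-chain enzyme, lay at 20.1 to 24.4 CPM in D and 22.9 to 27.2 CPM in M (log2 fold change -0.20 ± 0.09; adjusted p = 0.114); it passed as lower with library totals, FPKM or TPM.

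**Figure D3:**
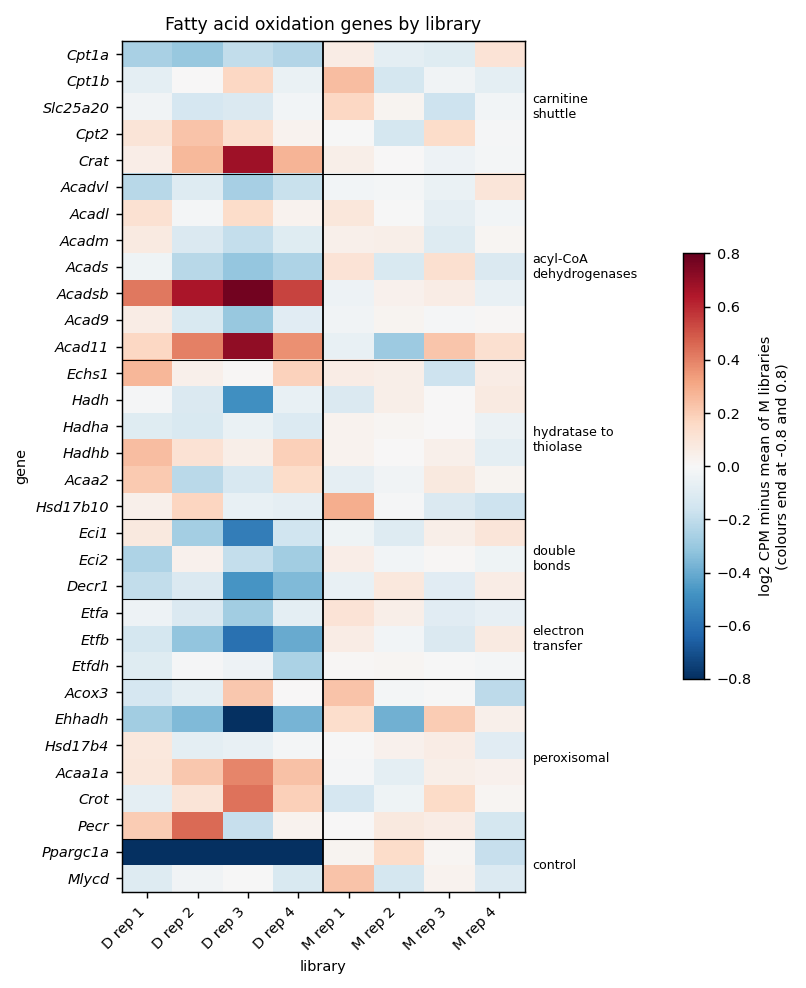
Log2 CPM of each tested gene in each library minus the mean of the M libraries, by step; columns are D replicates 1 to 4 and M replicates 1 to 4, and colours end at -0.8 and 0.8, which Ppargc1a in all D libraries and Ehhadh in D replicate 3 exceed. Of the genes past the threshold, Acadsb, Acad11, Crat and Acaa1a are above and Ppargc1a, Etfb, Cpt1a and Acadvl are below the M mean in every D library.

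None of the 6 genes of the later mitochondrial steps passed, where 34.7% of all tested genes did. Hadha, the subunit with the hydratase and hydroxyacyl dehydrogenase activities for long chains, was at 129, 127, 133 and 128 CPM in D and 141, 139, 138 and 133 CPM in M. D lay below M throughout, though the highest D and the lowest M library nearly met. Its log2 fold change was -0.09 ± 0.06 (adjusted p = 0.212). Hadhb, the thiolase subunit of the same complex, was at 79.8, 72.6, 69.5 and 76.5 CPM in D and 68.6, 67.4, 69.2 and 63.6 CPM in M. D lay above M throughout, the opposite order to its partner. Its log2 fold change was 0.15 ± 0.07 (adjusted p = 0.0942). Echs1, the short-chain hydratase, lay at 41.6 to 49.6 CPM in D and 36.8 to 43.1 CPM in M, Hadh, the short-chain hydroxyacyl dehydrogenase, at 22.2 to 31.0 and 28.7 to 32.7 CPM, the medium-chain thiolase Acaa2 at 24.7 to 33.3 and 27.4 to 30.4 CPM, and Hsd17b10, a hydroxyacyl dehydrogenase also used in isoleucine breakdown, at 27.3 to 32.3 and 25.6 to 35.0 CPM. Their log2 fold changes were 0.13, -0.16, 0.01 and 0.01. Hadha passed as lower with library totals (-0.20, adjusted p = 0.0150), FPKM or TPM, and Hadhb as higher with the DESeq2 test (0.18, adjusted p = 0.0426), with unadjusted voom and without D replicate 3 (0.20, adjusted p = 0.0319).

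A ratio of 2 genes within a library does not depend on how libraries are scaled. The pairs were chosen after the values had been seen, so the ratios are described without a test. The Hadha:Hadhb ratio of TPM was 1.20, 1.30, 1.43 and 1.25 in D and 1.53, 1.54, 1.49 and 1.56 in M, so all D libraries lay below all M libraries for these genes that share an upstream region. The Etfa:Etfb ratio was 0.526, 0.563, 0.610 and 0.613 in D and 0.507, 0.514, 0.497 and 0.444 in M, higher throughout D. The Cpt1a:Cpt2 ratio was 2.1, 1.87, 2.14 and 2.24 in D and 2.81, 2.82, 2.28 and 2.92 in M, lower throughout D, with D replicate 4 and M replicate 3 close together. The Acadsb:Acads ratio was 1.05 to 1.62 in D and 0.689 to 0.854 in M. The ratios Cpt1a:Cpt1b, Acadvl:Acadl, Acaa1a:Acaa2 and Etfdh:Etfb overlapped between the groups.

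**Figure D4:**
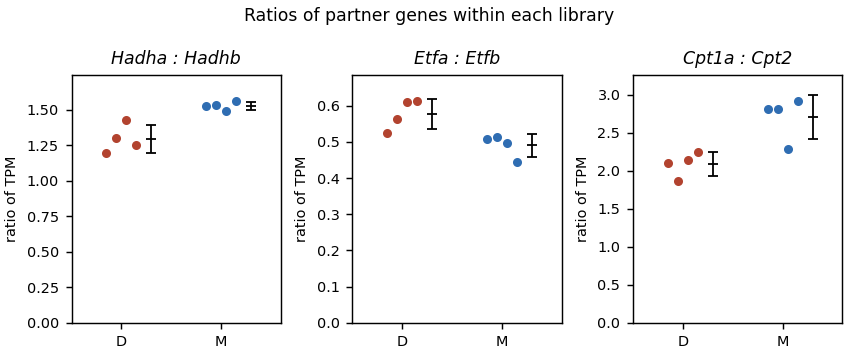
Ratio of TPM within each library for 3 pairs of partner genes (vertical axes from 0, no unit); points are libraries and bars are mean and SD of 4 libraries. Hadha:Hadhb and Cpt1a:Cpt2 are lower in every D library than in any M library, and Etfa:Etfb is higher.

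The enzymes for double bonds, which unsaturated fatty acids need, all had negative log2 fold changes, as had 6950 of all 12839 tested genes. Of the 3 enzymes 0 passed, where 34.7% of all tested genes did. Eci2, an enoyl-CoA isomerase, was at 21.2, 25.7, 22.1 and 20.7 CPM in D and 26.0, 24.7, 25.3 and 24.5 CPM in M, with D replicate 2 inside the M range (log2 fold change -0.17 ± 0.08; adjusted p = 0.1502); it passed as lower with library totals, FPKM or TPM. Decr1, 2,4-dienoyl-CoA reductase, was at 12.8, 13.5, 10.6 and 11.5 CPM in D and 14.1, 15.6, 13.8 and 15.3 CPM in M. Its groups did not overlap, and at -0.28 ± 0.10 (adjusted p = 0.0529) it lay just outside the threshold. Decr1 passed as lower in 9 of 23 alternatives. Among them were library totals, FPKM, TPM and the fit with the replicate number as a block (-0.28, adjusted p = 0.0488). Eci1, another enoyl-CoA isomerase, lay at 8.16 to 12.6 CPM in D and 11.1 to 12.8 CPM in M (log2 fold change -0.21 ± 0.13; adjusted p = 0.228). The summed TPM of the 3 genes was 51.3 ± 6.29 in D and 62.8 ± 1.48 in M (SD, n = 4).

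Electron transfer genes carry electrons from the dehydrogenases to ubiquinone. Etfb, the beta subunit of the flavoprotein, was at 52.3, 46.4, 38.2 and 43.6 CPM in D and 60.1, 56.8, 53.3 and 60.6 CPM in M. All D libraries lay below all M libraries, D replicate 3 farthest. Etfb was 1.28-fold lower in D (log2 fold change -0.36 ± 0.09; adjusted p = 0.0145). It passed in all 23 alternatives, at -0.47 to -0.27, and without D replicate 3 it was at -0.27 (adjusted p = 0.0248). Its partner Etfa lay at 38.5 to 45.5 CPM in D and 43.8 to 50.4 CPM in M (log2 fold change -0.13 ± 0.08; adjusted p = 0.218), and Etfdh, which passes the electrons on to ubiquinone, at 31.3 to 37.1 and 36.9 to 37.7 CPM (-0.10 ± 0.07; adjusted p = 0.299). The summed TPM of the 3 genes was 201, 186, 150 and 172 in D and 227, 225, 214 and 229 in M, on a scale that lies lower in D for most genes, with a median log2 fold change of -0.11 over all genes tested on TPM. Of the genes past the threshold, 3 overlap another gene in the annotation: Etfb and Cldnd2 (0.583 CPM over all libraries) share 59 bases, Crat and Dolpp1 (15.7 CPM) 54 bases, and Acad11 and Ackr4 (0.0781 CPM) 28962 bases. Echs1 shares 687 bases with Paox (22.0 CPM) and Etfdh 23 bases with Ppid (98.6 CPM). The part of these overlaps in the results was not tested.

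Of the peroxisomal genes 1 of 6 was higher (16.7%, against 17.4% of all tested genes) and 0 lower. Their summed TPM was 222 ± 7.02 in D and 225 ± 11.2 in M. Acox3, an acyl-CoA oxidase that acts on branched chains, was at 179, 186, 228 and 197 CPM in D and 230, 194, 196 and 170 CPM in M. The groups covered nearly the same range, and the log2 fold change was 0.00 ± 0.10 (adjusted p = 0.998). Acaa1a, the peroxisomal thiolase, was at 45.0, 49.1, 55.6 and 49.9 CPM in D and 42.0, 40.2, 43.8 and 43.5 CPM in M. D lay above M throughout in CPM, though not in TPM. Acaa1a was 1.18-fold higher (log2 fold change 0.24 ± 0.08; adjusted p = 0.0326). Of 23 alternatives 11 ended this call, among them library totals (0.13, adjusted p = 0.152), FPKM, TPM and the fits without D replicate 2, D replicate 4 or any 1 M library (adjusted p = 0.0543 to 0.0889), and 1 turned its sign. Its counts were split over 5 transcripts, with 1 predicted transcript at 30.2% to 87.4% in D and 15.6% to 53.0% in M, and with curated transcripts alone the value turned to -0.08 (adjusted p = 0.924). Acaa1a has a near-identical neighbour, Acaa1b, listed at 0.0252 CPM in D and 0.0251 CPM in M, and how reads that match both were divided is not given in the sources used here.

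The other peroxisomal genes did not pass. Crot, which hands shortened acyl groups to carnitine, lay at 36.7 to 52.2 CPM in D and 35.2 to 42.9 CPM in M (log2 fold change 0.17 ± 0.11; adjusted p = 0.239). Hsd17b4, the D-bifunctional protein, lay at 56.7 to 63.5 and 56.3 to 62.3 CPM (-0.02 ± 0.06; adjusted p = 0.850), and Pecr, a trans-2-enoyl-CoA reductase, at 2.92 to 4.54 and 3.01 to 3.5 CPM. Ehhadh, the L-bifunctional enzyme and in liver a strong PPAR alpha target, was scarce, at 0.993 to 1.61 CPM in D and 1.50 to 2.25 CPM in M (-0.48 ± 0.22; adjusted p = 0.114).

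Of the control genes, Ppargc1a, which encodes the coactivator PGC-1 alpha, had the largest difference of the set. Its estimated counts were 9, 10, 6 and 9 in D and 32, 34, 31 and 27 in M, or 0.441 ± 0.0772 CPM against 1.54 ± 0.142 CPM. Counts were few, but each M library had more than each D library. Ppargc1a was 3.45-fold lower in D (log2 fold change -1.79 ± 0.24; adjusted p = 0.000418) and passed in the 17 alternatives that tested it, at -1.89 to -1.62. Mlycd, malonyl-CoA decarboxylase, which removes the inhibitor of carnitine palmitoyltransferase 1, was at 13.5, 14.2, 14.4 and 13.3 CPM in D and 16.9, 13.1, 14.7 and 13.4 CPM in M, and the groups overlapped (-0.07 ± 0.10; adjusted p = 0.608).

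**Figure D5:**
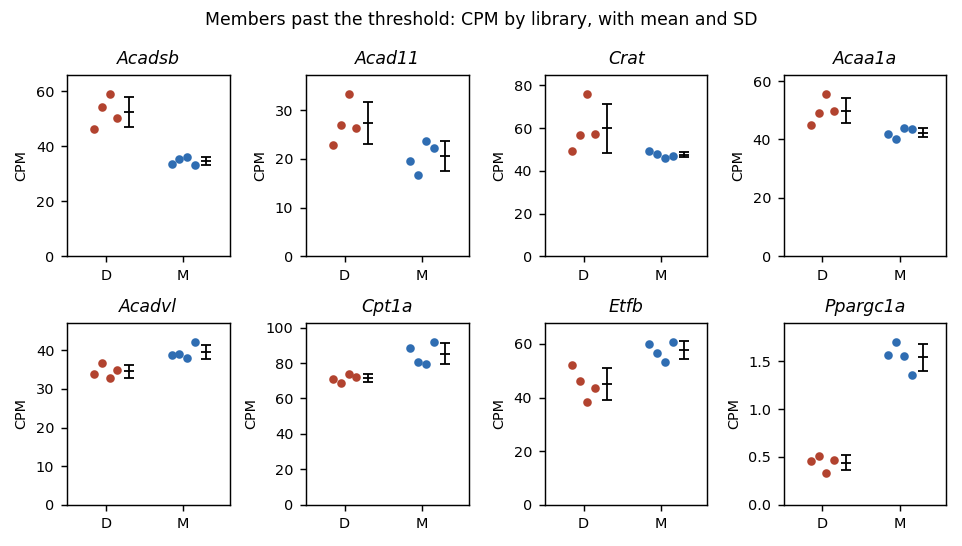
CPM by library of the 8 genes past the threshold (vertical axes from 0; red D, blue M; bars, mean and SD of 4 libraries). Acadsb and Ppargc1a are the most widely separated, D replicate 3 is the highest point of Crat, and Acad11 overlaps between groups.

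Set side by side, the 24 genes listed under mitochondrial steps (the carnitine shuttle included) had 3 higher and 3 lower (25.0%, against 34.7% of all tested genes). Their median log2 fold change was -0.09. The 6 genes listed as peroxisomal had 1 higher, 0 lower (16.7%) and a median of 0.07. The difference between them was not tested. This split follows the steps named at the start. Where the proteins of Acad11, Crat, Eci2 and the other genes lie in the cell was not examined. Acad11 and Crat are among the 3 higher genes of the mitochondrial steps. With library totals the peroxisomal median was -0.03, so its sign turned with the scaling. Summed over all 33 genes the level was 1190, 1146, 1064 and 1116 TPM in D and 1242, 1217, 1223 and 1214 TPM in M. D lay below M in each case. The sum in CPM, which follows the TMM factors, was 1323 to 1383 in D and 1315 to 1408 in M and overlapped. D replicate 3 was the lowest D library in 14 of 32 genes (43.8%, against 35.8% of all tested genes), and without D replicates 1 and 3 together 4 genes were higher and 3 lower.

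A list of 36 genes was written to hold other genes of fatty acid oxidation. It also held genes beside that pathway, such as Ivd of leucine breakdown and the mitochondrial transcription factor Tfam. The listed genes passed at a rate near that of all genes (31.25% against 34.7%). Of 32 tested, 4 were higher and 6 lower, with a median of 0.01. Abcd2, a transporter of very-long-chain acyl-CoA into peroxisomes, was at 77.2, 98.4, 151 and 113 CPM in D and 54.7, 55.3, 58.3 and 55.9 CPM in M (log2 fold change 0.97 ± 0.17; adjusted p = 0.00248). All D libraries lay above M, and D replicate 3 was highest. Phyh, which begins alpha-oxidation of phytanic acid, was higher at 30.5 ± 6.76 against 20.1 ± 0.50 CPM (0.60 ± 0.14; adjusted p = 0.00812). The peroxisomal reductase Decr2 was at 12.5 ± 0.315 against 9.77 ± 0.214 CPM (0.35) and the thiolase and sterol carrier Scp2 at 191 ± 23.8 against 152 ± 7.93 CPM (0.33). The call of Decr2 ended in 3 of 23 alternatives, library totals among them (adjusted p up to 0.205), and that of Scp2 in 2 (up to 0.0554).

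Among the 6 lower genes of that list, Ivd, isovaleryl-CoA dehydrogenase of leucine breakdown, was at 36.0, 28.1, 26.1 and 28.6 CPM in D and 61.3, 45.9, 57.0 and 54.3 CPM in M (log2 fold change -0.88 ± 0.12; adjusted p = 0.000412). Its groups were far apart, in the direction opposite to Acadsb, an acyl-CoA dehydrogenase of the isoleucine pathway. The mitochondrial thioesterase Acot2 was at 3.92 ± 0.621 against 7.57 ± 0.853 CPM (-0.95 ± 0.15; adjusted p = 0.00109), Acot13 at 16.1 ± 0.984 against 19.7 ± 0.683 CPM (-0.29) and the mitochondrial transcription factor Tfam at 30.2 ± 4.60 against 37.4 ± 0.190 CPM (-0.31). The call of Tfam ended in 9 of 23 alternatives, the fits without any 1 library other than D replicate 1 among them (adjusted p up to 0.0858), and that of Acot13 in 4 (up to 0.0578). The carnitine importer Slc22a5 (-0.30; adjusted p = 0.0381) and the peroxisomal carrier Slc25a17 (-0.21; adjusted p = 0.0426) were also lower and are named here after their values were seen; each of their calls ended in 13 of 23 alternatives. Abcd2, Phyh, Ivd and Acot2 passed in all 23.

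Known PPAR alpha targets outside the set were mostly below the filter or did not pass. Of 15 listed, 12 were in the table and 7 passed the filter, with a median of -0.14. Of these 7, 1 was higher and 1 lower (28.6%, against 34.7% of all tested genes). The higher gene was Txnip, an inhibitor of thioredoxin that glucose also induces, at 406 ± 127 against 238 ± 26.5 CPM (log2 fold change 0.77, adjusted p = 0.0159). The lower gene was Acot2, above. Pdk4, which rises with fasting in liver and muscle, was below the filter. Plin2 (226 ± 27.6 against 249 ± 43.3 CPM) and Angptl4 (5.68 ± 0.925 against 6.87 ± 0.496 CPM) did not pass (adjusted p = 0.403 and 0.149).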

How the data were processed

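RNA of 8 cultured mouse samples was sequenced after oligo(dT) capture, per the labels' protocols. Per the submitters' processing notes and design text, SOAPnuke 1.5.6 removed poor reads and a program spelled HISTA2 2.1.0 aligned the rest to mm10 (GRCm38), and differences were called with limma 3.66.0 at an unadjusted 0.05; the quantifier, annotation release and use of strand were not given in the sources used here. The deposited estimated counts are per RefSeq transcript and carry no normalization (37.3% to 40.8% of values exactly whole). TPM, as deposited by the authors, corrects for transcript length and has a fixed total; per the file headers the deposited FPKM corrects for length and depth. A further 16 columns of normalized counts and group means were not used.

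Counts were summed per gene, matched to symbols and GRCm38 positions through NCBI RefSeq (17836 of 17890 genes), and rounded. edgeR 4.0.16 in R 4.3.3 (filterByExpr, minimum count 10 and total 15; TMM; robust quasi-likelihood fit; group only) tested 12839 genes, adjusted by Benjamini-Hochberg over all of them; the biological coefficient of variation was 12.4%. The code was tested on simulated counts. Replicates differed beyond sampling noise (6.49 to 67.0 for the mean chi-square over genes), so none was counted as a copy. Same-numbered D and M libraries deviated together (correlations 0.115, 0.131, 0.119 and 0.182, each above 0.1, the level taken here as pairing; other pairs -0.178 to 0.0735); what the number stands for is not stated, and the fit with it as a block is an alternative to the group-only fit. Alternatives used DESeq2 1.42.0, limma 3.58.1, other scalings, filters, transcript choices, the replicate block and libraries left out.

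The genes and lists were chosen with earlier results of these data known. Named were all 33 genes, with every library's value for those past the threshold and the most abundant of each step, and of other lists the called genes, at most 4 of each direction by lowest p. Protein sequences were not analysed here, and a few genes of the other lists are counted but not reported here by name.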

Additional observations from a re-analysis of the deposited data

Results flagged for a closer look

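A gap test (Dixon's, at 95%) was run on the CPM of each of the 32 tested genes in each group of 4 libraries, 64 groups in all, of which chance flags about 1 in 20; 2 were flagged, fewer than chance alone would give. Echs1 stood at 36.8 CPM in M replicate 3, against 42.7 to 43.1 CPM in the other M libraries. Ehhadh stood at 0.993 CPM in D replicate 3, the library that also lay apart on the first principal component, against 1.51 to 1.61 CPM in the other D libraries. Neither gene passed the test between groups.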

How the results depend on the processing

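Acadsb and Etfb passed in all 23 alternatives and Ppargc1a in the 17 that tested it. The count of higher genes in the set, 4, became 1 with library totals, FPKM at either pseudocount (1 or 0.1), TPM, the most abundant transcript or curated transcripts, and 1 to 5 when libraries were left out singly. The count of lower genes, 4, became 8 with library totals and with FPKM at either pseudocount, 7 with TPM, 1 with the most abundant transcript, 1 with curated transcripts and 2 to 3 with libraries left out singly. Over all genes, 2233 higher became 1360 and 1354 with FPKM, 1456 with TPM, 1088 with the most abundant transcript and 1325 with curated transcripts; 2223 lower became 3346 with library totals, 964 with the most abundant transcript and 1206 with curated transcripts. The cause was not tested. Crat turned to -0.23 with the most abundant transcript and Acaa1a to -0.079 with curated transcripts; Cs, described below, turned to -0.14 and -0.12 with those settings. Genes that had not passed changed sign 49 times, over 7 genes, with no log2 fold change above 0.103 in size on the other side. With the replicate number as a block 3 genes were higher and 4 lower (2412 and 2403 over all genes): the calls of Crat and Acadvl ended, Decr1 passed, and the block changed no other call in the set. Leaving out D replicate 2, D replicate 4, M replicate 1, M replicate 2 or M replicate 4 left Acadsb as the only gene called higher; without M replicate 3 it was joined by Acad11. The few counts of Ppargc1a and Ppara limit what depth can show for these genes. The check of peroxisomal signals in protein sequence was not run.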

Other observations

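A list of peroxisome assembly genes and the enzyme catalase (Cat) gave 0 higher and 4 lower of 17 tested, with a median log2 fold change of 0.02. That is 23.5% called, all lower, where 34.7% of all tested genes were called and 17.3% were lower. The clearest was Cat, the peroxide-degrading catalase of peroxisomes, at 93.4, 81.1, 66.6 and 90.1 CPM in D and 123, 131, 108 and 122 CPM in M (log2 fold change -0.55 ± 0.11, SE; adjusted p = 0.00323 by edgeR). All D libraries lay below all M libraries, and the call held in all 23 alternatives. Pex10, at 4.50 ± 0.573 against 6.38 ± 0.962 CPM (SD, n = 4), and Pex11g, at 4.19 ± 0.542 against 5.61 ± 0.681 CPM, passed too, but 7 and 14 of 23 alternatives ended these calls (adjusted p up to 0.0798 and 0.316). Among them were left-out libraries for both and, for Pex11g, the replicate block (-0.42, adjusted p = 0.0801), DESeq2 and no filter.

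Genes read as a gauge of mitochondrial content (13 tested) had a median log2 fold change of 0.00, with 1 higher and 1 lower (15.4%, against 34.7% of all tested genes). The D libraries differed from one another here. The summed level was 2320, 2092, 1639 and 2036 TPM in D and 2008 to 2124 TPM in M, with D replicate 1 above and D replicate 3 below all M libraries. In CPM the sum was 2469, 2236, 1868 and 2231 in D and 2101.5 to 2180 in M. On that scale D replicate 3 lay below and the other D libraries above all M libraries. Citrate synthase, Cs, was at 284 ± 10.02 CPM in D and 248 ± 13.9 CPM in M (0.20 ± 0.07; adjusted p = 0.0408), a call that ended in 13 of 23 alternatives, library totals among them. Timm44, part of the import motor of the inner membrane, was at 36.7 ± 5.31 against 48.0 ± 2.76 CPM (-0.39 ± 0.10; adjusted p = 0.0128) and passed in all 23.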
